A study of Homo sapiens with 11 samples.

Results

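Peak lists of 2 groups from HEK293T cells were compared: that of the libraries labelled edit_myc_FLAG, made with an antibody against the FLAG tag, and that of the libraries labelled endog_myc, made with an antibody against MYC itself. Regions on chromosomes 1 to 22 and X were kept where they overlapped neither IgG list by 1 bp or more, which left 1675 edit_myc_FLAG regions and 873 endog_myc regions, 2548 of the 5435 regions in the 5 deposited lists. A region was called shared when it overlapped a region of the other list by 1 bp or more. By this rule 433 edit_myc_FLAG regions and 432 endog_myc regions were shared, in 434 overlapping pairs, while 1242 regions were in edit_myc_FLAG alone and 441 in endog_myc alone.

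HEK293T cells are a line from human embryonic kidney that expresses the large T antigen of SV40. The study ran CUT&RUN, in which an antibody tethers a nuclease that cuts the DNA around its target in permeabilised cells, on 11 libraries: 3 each of edit_myc_FLAG, myc_FLAG and endog_myc, and 1 each with mouse and rabbit IgG. FLAG was bound by a mouse antibody and MYC by a rabbit antibody, so mouse IgG matches the former and rabbit IgG the latter. The labels do not say what was edited, where the tag sits, whether a tagged protein came from a transgene, or whether a line was 1 clone, so each group keeps its label as a name. Each target group has 1 list for its 3 libraries, so nothing here measures the spread between replicates, no test between the lists was possible, and intervals (95% Wilson) cover counting error only. Read depth is unknown, and the fold enrichment and −log10 q of each region are the authors' values, used within a list. A region in 1 list alone shows no loss in the other, since each list ends at the caller's threshold.

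The transcription factor MYC pairs with MAX to bind DNA, and the best known site of the pair is the E-box, CACGTG. In growing cells it is found at promoters of many active genes, also at promoters with no such site. Promoters carry sites for other factors too, among them the CCAAT box, which the trimeric factor NF-Y binds, and the GC box, GGGCGG, which SP1 and its relatives bind.

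Promoters under these regions, the shared ones most, often held CCAAT boxes. RefSeq promoter windows (GRCh38.p14, the same build as hg38) cover the 250 bases before a gene's start and the 50 bases after it. The following lines give the 250 bases before the start for 8 genes, chosen after their values were seen to show promoters of shared regions, then of regions in 1 list alone. Capitals mark CCAAT, its reverse complement ATTGG, and the E-box CACGTG, read 5′ to 3′ on the gene's strand. The windows of shared regions are SKA2 (chr17:59155187-59155436, minus strand), P4HB (chr17:81860536-81860785, minus strand), DOLPP1 (chr9:129080861-129081110, plus strand), HNRNPUL1 (chr19:41264122-41264371, plus strand) and UNG (chr12:109097922-109098171, plus strand). The window of PABPN1 (chr14:23321207-23321456, plus strand) lay under a region of endog_myc alone. The windows of LCA5 (chr6:79537431-79537680, minus strand) and MTHFD1 (chr14:64388103-64388352, plus strand) lay under regions of edit_myc_FLAG alone.
SKA2: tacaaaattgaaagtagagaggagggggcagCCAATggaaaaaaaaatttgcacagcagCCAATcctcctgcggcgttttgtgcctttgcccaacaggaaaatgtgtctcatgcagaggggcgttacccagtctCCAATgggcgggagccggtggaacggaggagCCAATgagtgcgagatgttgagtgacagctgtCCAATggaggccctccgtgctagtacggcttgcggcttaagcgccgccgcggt
P4HB: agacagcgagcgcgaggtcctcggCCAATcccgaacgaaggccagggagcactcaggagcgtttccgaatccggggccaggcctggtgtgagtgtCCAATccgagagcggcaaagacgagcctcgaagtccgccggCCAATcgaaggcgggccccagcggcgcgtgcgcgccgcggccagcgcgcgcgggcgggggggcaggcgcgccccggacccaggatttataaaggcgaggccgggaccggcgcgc
DOLPP1: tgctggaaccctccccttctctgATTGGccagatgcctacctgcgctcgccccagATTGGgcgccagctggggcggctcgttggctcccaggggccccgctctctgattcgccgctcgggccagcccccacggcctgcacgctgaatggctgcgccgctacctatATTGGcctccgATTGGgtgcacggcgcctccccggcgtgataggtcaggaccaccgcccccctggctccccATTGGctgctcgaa
HNRNPUL1: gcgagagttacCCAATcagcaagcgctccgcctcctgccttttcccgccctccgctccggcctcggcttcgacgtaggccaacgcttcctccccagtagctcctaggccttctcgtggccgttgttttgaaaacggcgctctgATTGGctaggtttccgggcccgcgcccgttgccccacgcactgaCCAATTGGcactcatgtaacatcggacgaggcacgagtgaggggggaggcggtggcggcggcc
UNG: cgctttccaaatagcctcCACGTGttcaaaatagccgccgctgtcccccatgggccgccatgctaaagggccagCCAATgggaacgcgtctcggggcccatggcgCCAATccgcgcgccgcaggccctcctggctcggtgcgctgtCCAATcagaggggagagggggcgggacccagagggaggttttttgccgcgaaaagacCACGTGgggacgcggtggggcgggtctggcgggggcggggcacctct
PABPN1: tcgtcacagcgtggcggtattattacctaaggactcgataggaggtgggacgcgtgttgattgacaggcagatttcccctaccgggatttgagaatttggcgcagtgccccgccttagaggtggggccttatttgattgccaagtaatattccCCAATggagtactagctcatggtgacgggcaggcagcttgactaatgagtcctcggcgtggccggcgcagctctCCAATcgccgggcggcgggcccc
LCA5: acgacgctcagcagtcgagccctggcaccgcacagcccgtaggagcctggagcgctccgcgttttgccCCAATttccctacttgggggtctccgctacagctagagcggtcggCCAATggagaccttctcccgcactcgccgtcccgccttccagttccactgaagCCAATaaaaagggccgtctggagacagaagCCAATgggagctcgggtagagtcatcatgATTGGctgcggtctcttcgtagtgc
MTHFD1: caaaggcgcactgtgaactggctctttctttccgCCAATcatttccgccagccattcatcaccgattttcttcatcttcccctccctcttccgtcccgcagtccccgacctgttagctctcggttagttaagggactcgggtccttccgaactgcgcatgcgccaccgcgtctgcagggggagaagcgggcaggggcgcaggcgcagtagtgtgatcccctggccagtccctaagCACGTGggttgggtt
SKA2, a subunit of the spindle and kinetochore-associated complex, has 5 boxes that all read CCAAT, and DOLPP1, a dolichyl pyrophosphate phosphatase, has 5 that all read ATTGG. P4HB, which forms disulfide bonds in the endoplasmic reticulum, has 3 in the forward direction. HNRNPUL1, a nuclear RNA-binding protein, has 2 in each direction, of which the last forward and the last reverse box overlap. UNG, the uracil-DNA glycosylase of base excision repair, has 3 CCAAT boxes and 2 E-boxes in the printed stretch. UNG has another listed start, and the 250 bases before it (chr12:109097347-109097596) hold no CCAAT box and no E-box. The whole window of that start, with the 50 bases after it, holds 1 CCAAT box and no E-box. PABPN1, the nuclear poly(A)-binding protein, has 2 boxes. LCA5, which encodes the ciliary protein lebercilin, has 4 forward and 1 reverse. MTHFD1, an enzyme of folate metabolism, has 1 CCAAT box and 1 E-box.

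Over all windows the CCAAT box followed the same pattern, and the E-box CACGTG did not. A CCAAT box on either strand was in 34.6% of all 22132 windows of protein-coding genes on these chromosomes. It was in 178 of the 201 windows overlapped by shared edit_myc_FLAG regions (88.6%, 83.4 to 92.3), in 95 of 121 windows under endog_myc alone (78.5%, 70.4 to 84.9) and in 336 of 528 under edit_myc_FLAG alone (63.6%, 59.4 to 67.6). The interval of the shared windows does not meet that of edit_myc_FLAG alone, and it overlaps that of endog_myc alone. The 201, 121 and 528 windows belong to 182, 108 and 452 genes. A gene with several starts can count more than once, which the intervals ignore. The E-box was in 15 of 201 shared windows (7.46%, 4.57 to 11.9), 11 of 121 under endog_myc alone (9.09%, 5.15 to 15.5) and 64 of 528 under edit_myc_FLAG alone (12.1%, 9.61 to 15.2), against 8.34% of all windows. Only the edit_myc_FLAG-alone interval lay above the share of all windows. A match is a string of letters and not a measured binding site, and a window without one says nothing of MYC.

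The same box was in the few promoters of the IgG lists. All 13 windows overlapped by rabbit IgG regions and both windows overlapped by mouse IgG regions held a CCAAT box, and none of them held an E-box. In the rabbit IgG windows 12 of 13 held at least 2 CCAAT boxes. The part that background cutting at such promoters plays in the shared regions was not tested.

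**Figure D1:**
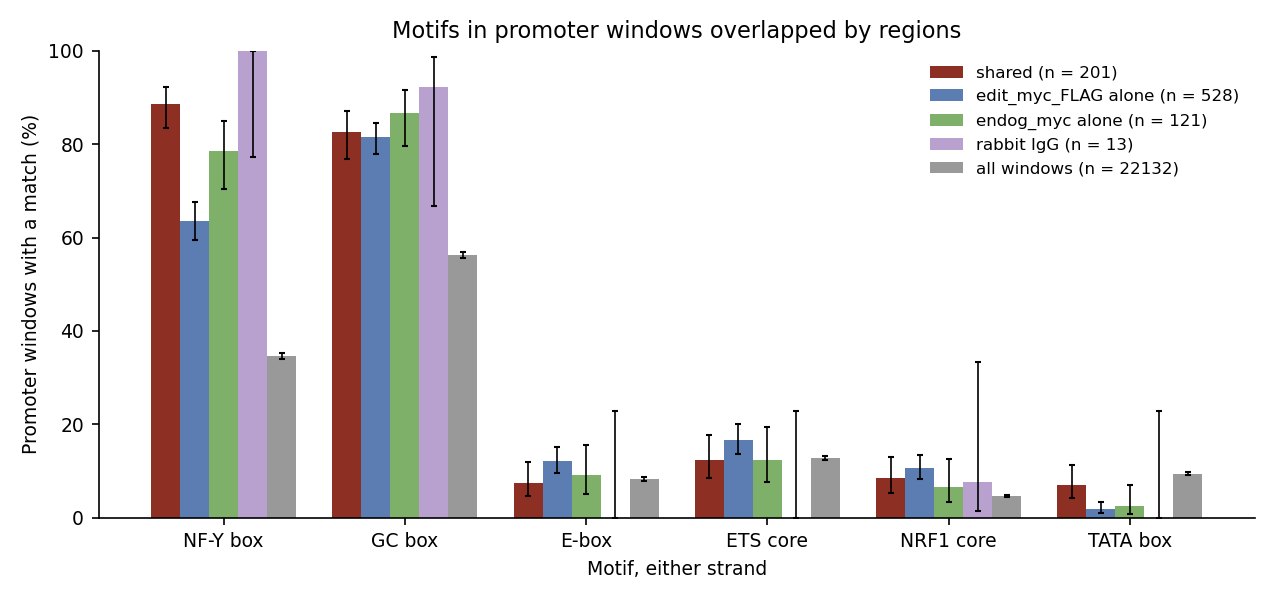
Share of promoter windows (vertical axis, %) that hold each of 6 motifs on either strand (horizontal axis), for windows overlapped by shared regions, by regions of 1 list alone and by rabbit IgG regions, and for all windows. NF-Y box stands for the CCAAT box, bars are shares and lines are 95% Wilson intervals. The NF-Y box is in 88.6% of shared windows and 34.6% of all windows, while the E-box is in 7.46% and 8.34%.

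Shared windows often held several CCAAT boxes. At least 2 were present in 136 of 201 shared windows (67.7%, 60.9 to 73.7), 70 of 121 under endog_myc alone (57.9%, 48.9 to 66.3) and 199 of 528 under edit_myc_FLAG alone (37.7%, 33.7 to 41.9), against 11.4% of all windows. Counted in 1 window per gene, neighbouring boxes in shared windows started a median of 43 bp apart (quartiles 32 and 73, 281 spacings), close to the 46 bp (31 and 83) over all windows. Boxes in shared windows were centred a median of 111 bp before the start (position -111), against -94 over all windows, and 56.0% of them read CCAAT on the gene's strand, against 50.8%. The number of boxes differed more than their spacing or direction, with a mean of 2.36 per shared window and 0.513 over all windows.

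The higher share in shared windows was present in windows of low and of high GC content. Among windows with under 60% GC, a CCAAT box was in 41 of 43 shared windows (95.3%) and 41.1% of all windows. Among those with at least 75% GC it was in 18 of 21 shared windows (85.7%) and 19.5% of all. Within edit_myc_FLAG alone the share fell from 85.3% in the lowest of these GC classes to 37.1% in the highest. The share also followed the authors' fold within regions of 1 list alone. From the lowest to the highest fold quartile of the list it went from 43.0% to 75.8% in edit_myc_FLAG alone, and from 44.4% (of 9 windows) to 94.4% (of 18) in endog_myc alone. In shared windows it was between 84.3% and 90.9% in every fold quartile of edit_myc_FLAG. By fold quartile of endog_myc, shared windows had 88.2%, 84.6%, 85.5% and 93.4% from lowest to highest. Windows of endog_myc alone had 44.4%, 69.6%, 87.5% and 94.4%, so the share was no higher in shared windows in the third and highest quartiles.

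The distance from the summit of a region, the base the caller gives as its highest point, to a CCAAT box was taken inside the windows. Only summits in a window that holds a box have such a distance. Of the 94 shared edit_myc_FLAG summits that fell inside a window, 85 were in a window with a box, at a median of 32 bp from the nearest one (quartiles 13 and 58). For the 114 shared endog_myc summits in a window, 105 had a box, at a median of 26 bp. In edit_myc_FLAG alone, 189 of 286 had one, at a median of 33 bp, and in endog_myc alone 56 of 63, at a median of 27 bp. A GC box was nearest at a median of 63 bp for shared edit_myc_FLAG summits and 51 bp for shared endog_myc summits, but at 39.5 bp in edit_myc_FLAG alone, where 46.9% of summits had a GC box and 43.4% a CCAAT box within 50 bp. An E-box was in the window of 9 of the 114 shared endog_myc summits, at a median of 15 bp (quartiles 11 and 133). For shared edit_myc_FLAG summits it was in 5 of 94, at a median of 115 bp. In edit_myc_FLAG alone 35 of 286 summits had one, at a median of 60 bp, and in endog_myc alone 5 of 63, at 53 bp. A window with several boxes gives shorter distances by construction, so these medians describe positions and rank no motif. No level for random positions in the windows was computed, so whether summits lie closer to a box than other bases was not tested.

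Gene starts made up the largest class of the shared regions. A summit within 1000 bp of the start of a protein-coding gene was counted as at a gene start (either end of the gene where the promoter table has no entry), and the others as inside a gene, intergenic (within 100 kb of an annotated gene) or gene-poor (farther away). The gene table lists no exons, so positions within genes are not divided further. Of the shared edit_myc_FLAG regions, 187 of 433 lay at gene starts (43.2%, 38.6 to 47.9), 59 inside genes, 81 intergenic and 106 gene-poor (24.5%, 20.7 to 28.7). Regions of edit_myc_FLAG alone had a share at gene starts within the interval of the shared ones, 543 of 1242 (43.7%, 41.0 to 46.5), with 343 inside genes (27.6%, 25.2 to 30.2) and 120 gene-poor (9.66%, 8.14 to 11.4). Regions of endog_myc alone had another make-up, with 114 of 441 at gene starts (25.9%, 21.99 to 30.1) and 195 gene-poor (44.2%, 39.7 to 48.9). The intervals of edit_myc_FLAG alone inside genes and in gene-poor DNA meet none of the others. Of the shared edit_myc_FLAG regions, 28.3% lay at gene starts with no IgG filter and 37.3% with all contigs kept. Without chromosome 1 from 122 to 125 Mb the shares were 49.0% of shared and 31.6% of endog_myc-alone regions.

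**Figure D2:**
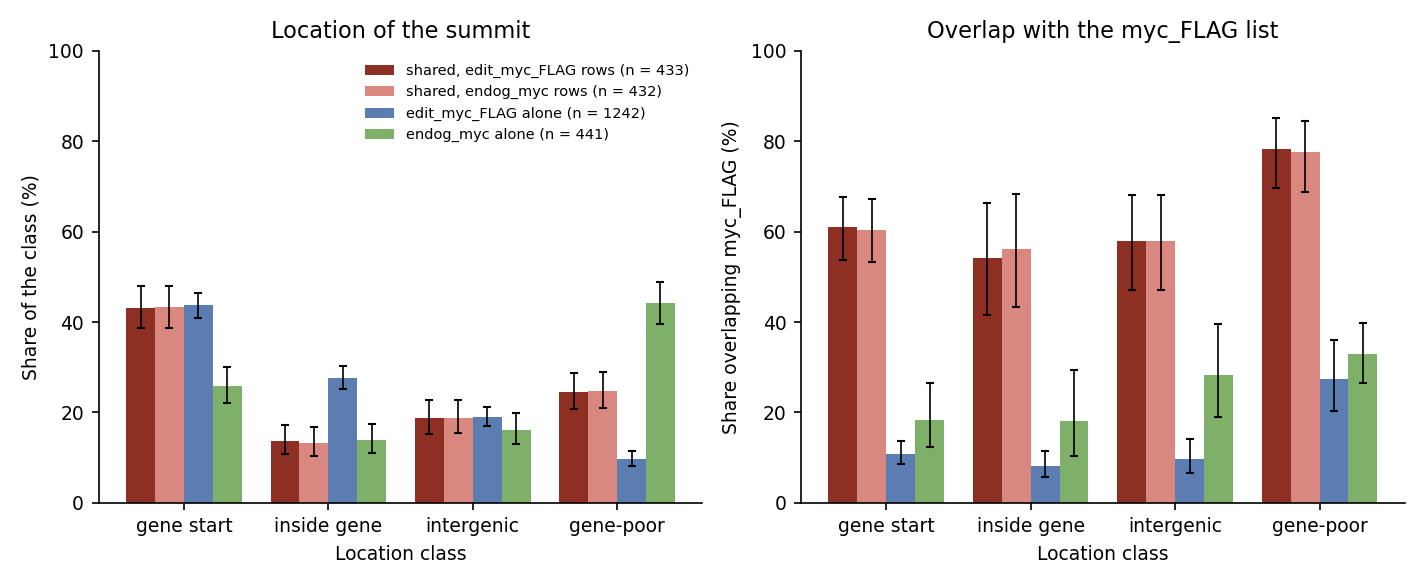
Left, share of each class of regions (vertical axis, %) by location of the summit (horizontal axis). Right, share of the regions at each location that overlap the myc_FLAG list; bars are shares and lines are 95% Wilson intervals. Regions of endog_myc alone are gene-poor in 44.2% of cases, against 9.66% in edit_myc_FLAG alone, and shared regions overlap myc_FLAG more often at every location.

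Read by list, the share of regions that were shared varied with location, and gene starts and gene-poor DNA had the opposite order in each list. Over all locations 25.9% of edit_myc_FLAG and 49.5% of endog_myc regions were shared, and the shorter list gives the higher share by construction. At gene starts 187 of 301 endog_myc regions were shared (62.1%, 56.5 to 67.4) against 107 of 302 in gene-poor DNA (35.4%, 30.2 to 41.0). In edit_myc_FLAG the order was turned, with 187 of 730 at gene starts (25.6%, 22.6 to 28.9) and 106 of 226 in gene-poor DNA (46.9%, 40.5 to 53.4). By construction the shared counts at a location are nearly equal in both lists. The turned order therefore restates how many regions each list has there, 730 and 301 at gene starts, 226 and 302 in gene-poor DNA. Inside genes the share was below that at gene starts in both lists, 14.7% of edit_myc_FLAG (11.6 to 18.5) and 48.3% of endog_myc regions (39.5 to 57.2). Intergenic regions were shared in 25.6% of cases in edit_myc_FLAG and 53.3% in endog_myc. With −log10 q of at least 5 in both lists 238 regions of each were shared, and with no IgG filter 699 and 684.

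Shared regions were stronger and wider within each list. The median fold was 5.87 in shared and 5.07 in unshared edit_myc_FLAG regions, and 5.74 and 5.01 in endog_myc. The median −log10 q was 6.87 against 3.53 in edit_myc_FLAG and 7.31 against 4.38 in endog_myc. Median widths were 303 and 214 bp in edit_myc_FLAG and 310.5 and 248 bp in endog_myc. A wider region has more room to overlap, and that part was not tested.

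The regions with the highest fold were shared most often, at gene starts and at most other locations. In edit_myc_FLAG, 13 of 127 gene-start regions in the lowest fold quartile of the list were shared (10.2%, 6.08 to 16.7), 29 of 187 in the second, 52 of 216 in the third and 93 of 200 in the highest (46.5%, 39.7 to 53.4). In endog_myc the highest quartile had 72 of 86 shared (83.7%, 74.5 to 90.0), the third 68 of 109 (62.4%), the second 34 of 82 (41.5%, 31.4 to 52.3) and the lowest 13 of 24 (54.2%, 35.1 to 72.1). In the highest endog_myc quartile 78.3% of the regions inside genes and 81.0% of the intergenic ones were shared too. Of the 50 gene-start regions with the highest fold, 45 of endog_myc (90%) and 33 of edit_myc_FLAG (66%) were shared. In gene-poor DNA the endog_myc intervals overlapped, with 28 of 87 in the lowest quartile (32.2%, 23.3 to 42.6) and 37 of 88 in the highest (42.0%, 32.3 to 52.5).

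**Figure D3:**
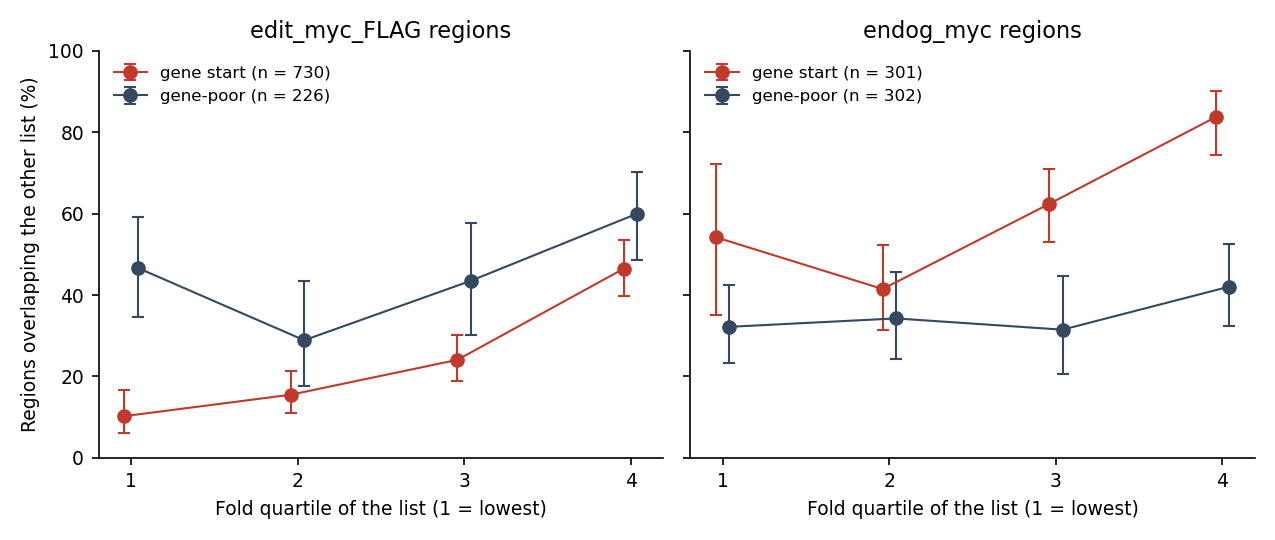
Share of regions that overlap the other list (vertical axis, %) in each quartile of a list by the authors' fold (horizontal axis, 1 lowest), for edit_myc_FLAG (left) and endog_myc (right); points are shares and lines are 95% Wilson intervals. At gene starts the share reaches 46.5% in the highest quartile of edit_myc_FLAG and 83.7% in that of endog_myc, while gene-poor endog_myc regions stay between 31.5% and 42.0%.

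The summits of shared pairs lay a median of 45 bp apart (quartiles 15 and 131), in regions with median widths of 303.5 bp in edit_myc_FLAG and 311.5 bp in endog_myc. Of 434 pairs, 226 had summits within 50 bp (52.1%) and 385 within 200 bp (88.7%), and 8 had the same base. The greatest distance was 766 bp. The distance depended on location: the median was 72 bp (95% interval of the median 59 to 87) for the 187 pairs at gene starts, 21 bp (16 to 30) for the 107 gene-poor pairs, 29 bp for the 59 inside genes and 49 bp for the 81 intergenic ones. The median signed distance, endog_myc minus edit_myc_FLAG, was 0 bp. With −log10 q of at least 5 in both lists the median was 28 bp over all pairs.

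**Figure D4:**
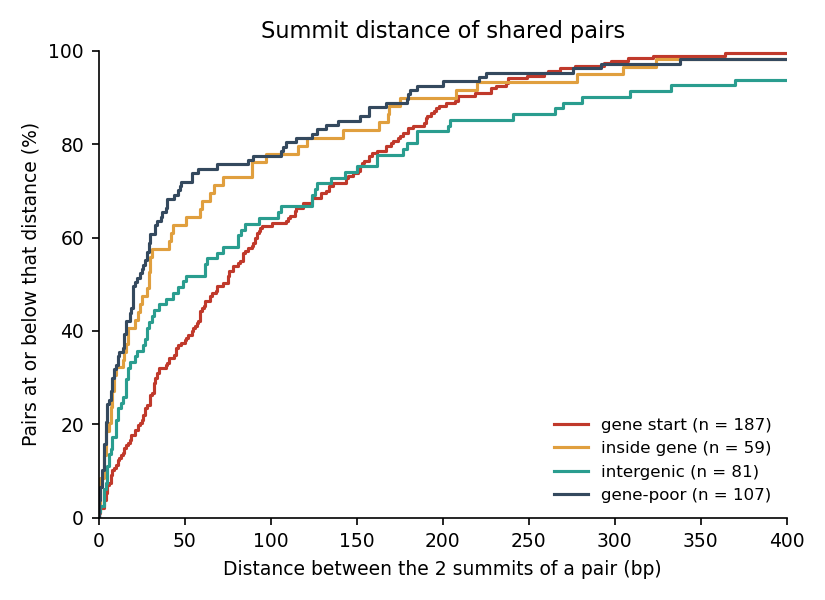
Cumulative share of shared pairs (vertical axis, %) by the distance between the edit_myc_FLAG and endog_myc summits (horizontal axis, bp, shown to 400), with 1 line per location. Up to 100 bp the gene-start line is the lowest, with a median of 72 bp, and the gene-poor line among the highest, with a median of 21 bp.

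At gene starts both summits lay mostly before the start. Among shared edit_myc_FLAG regions whose gene has a RefSeq start, 125 of 172 summits were upstream (72.7%, 65.6 to 78.8), at a median of 115 bp before it (-115). Among shared endog_myc regions 139 of 171 were (81.3%, 74.8 to 86.4), at a median of -132. The share was lower in edit_myc_FLAG alone, with 283 of 464 upstream (61.0%, 56.5 to 65.3) at a median of -54.5, and 72 of 99 (72.7%, 63.2 to 80.5) in endog_myc alone. The 4 greatest summit distances of gene-start pairs ran from 308 to 508 bp. At CBX5, which encodes the heterochromatin protein HP1-alpha, the endog_myc summit (54280555 on chromosome 12) was 508 bp from that of edit_myc_FLAG (54280047) and nearest to HNRNPA1. At RAB11B, a GTPase of recycling endosomes, the distance was 364 bp for a weak second edit_myc_FLAG region (fold 3.74). The same endog_myc region also overlapped a stronger edit_myc_FLAG region of RAB11B (fold 8.81), whose summit lay 26 bp away. At PARD6B, a cell polarity protein, the distance was 322 bp, and at SPAG7 308 bp.

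The order of the authors' fold in both lists was alike away from gene starts and much less so at them. Over 434 pairs the Spearman correlation of fold was 0.66 and Pearson's r of log2 fold 0.74. It was 0.31 (Spearman) over the 187 pairs at gene starts, 0.74 over the 59 inside genes, 0.82 over the 81 intergenic pairs and 0.85 over the 107 gene-poor pairs. These are descriptions across regions that share their libraries, and regions are not replicates. Gene-start pairs cover a narrower range, with a standard deviation of log2 fold of 0.32 in each list, against 0.59 and 0.63 elsewhere. Over the 195 pairs away from gene starts that lie within the fold range of gene-start pairs, the Spearman correlation was 0.66. Spearman's value away from gene starts exceeded that at gene starts by 0.50, by 0.20 with lists of equal length and by 0.19 when ranked by −log10 q.

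**Figure D5:**
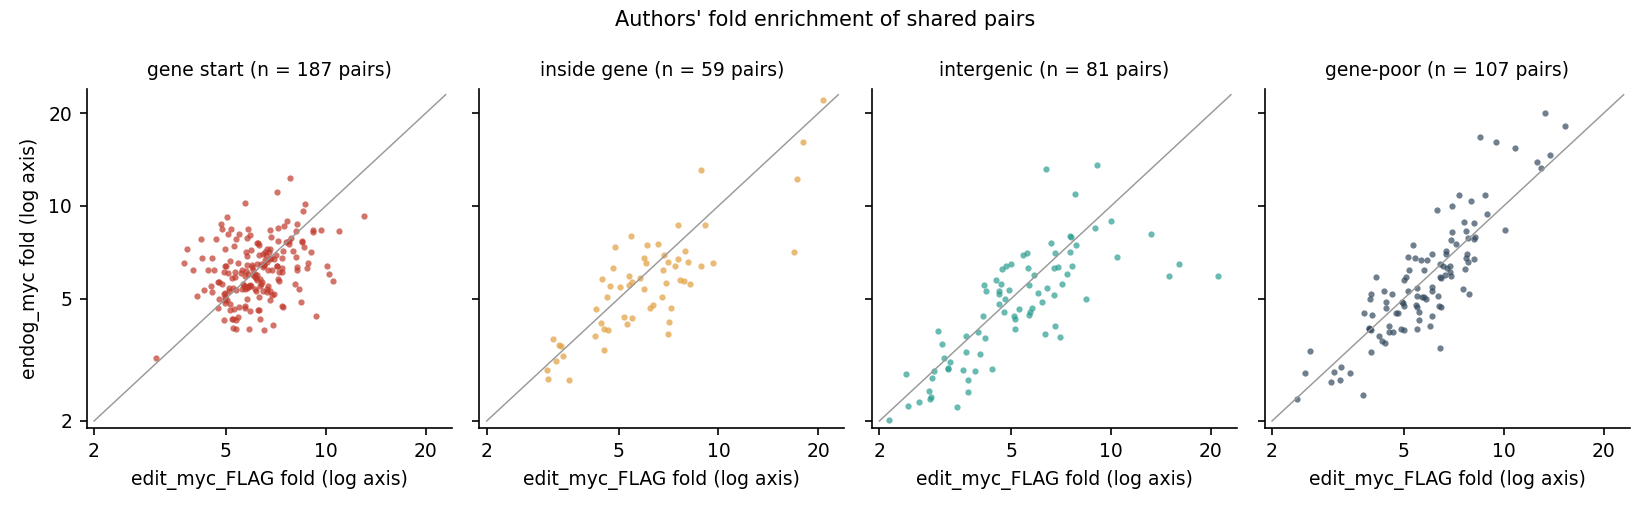
Authors' fold enrichment of each shared pair in edit_myc_FLAG (horizontal, log axis) and endog_myc (vertical, log axis), 1 panel per location and 1 point per pair, with the line of equal values. Gene-start pairs form a round cloud (Spearman 0.31), while gene-poor pairs follow the line (0.85).

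The 12 gene starts with the lowest sum of fold ranks were those of LOC124903130, CAMTA1, P4HB, SNRPA, IFT27, HNRNPUL1, MYPOP, ADI1, SKA2, SWSAP1, FAM117A and DOLPP1, and all 12 were also in myc_FLAG. At SKA2 the regions were chr17:59155271-59155607 in edit_myc_FLAG (fold 8.21) and chr17:59155163-59155624 in endog_myc (fold 8.72), with summits 19 bp apart. Both summits lie just beyond the upstream end of the printed stretch, that of edit_myc_FLAG 266 bp from the start. At DOLPP1 the folds were 8.45 and 7.68 on chr9:129080908-129081290 and chr9:129080914-129081388, with summits 34 bp apart. At HNRNPUL1 they were 9.17 and 8.36 on chr19:41263949-41264277 and chr19:41263906-41264350, with summits 56 bp apart. At P4HB and HNRNPUL1 too, both summits lie beyond the upstream end of the printed stretch. At IFT27, a small GTPase of intraflagellar transport in cilia, the folds were 9.69 and 8.37, and at FAM117A 7.62 and 8.95. MYPOP, a transcriptional repressor related to Myb, had the smallest summit distance of the 12, at 3 bp, and FAM117A the largest, at 159 bp.

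Away from gene starts, the 4 shared regions with the lowest rank sum had a higher edit_myc_FLAG fold than any shared region at a start. A region inside COL23A1, a transmembrane collagen, on chr5:178585535-178585741 ranked 2 in edit_myc_FLAG (fold 20.6) and 1 in endog_myc (fold 22.2), with summits 7 bp apart. A region inside FOXK2, a forkhead transcription factor, on chr17:82586211-82586524 ranked 6 in both lists, with folds of 18.1 and 16.2. The others were gene-poor, on chr17:26101494-26101656 (folds 15.3 and 18.2) and chr7:59251634-59251875 (folds 13.3 and 20.1). Their summits were 1192537 and 1801539 bp from the nearest gene start, and on chromosome 7 the summits of both lists fell on the same base. Whether reads map uniquely at these gene-poor regions was not tested. All 4 were also in myc_FLAG.

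Some shared pairs stood far apart in rank. NMT1, the N-myristoyltransferase, ranked 54 of 1675 in edit_myc_FLAG (fold 9.32) and 659.5 of 873 in endog_myc (fold 4.38). The region of chromosome X whose nearest gene start is that of PLS3, an actin-bundling plastin, 143611 bp away, had folds of 7.01 and 3.75. A region inside the noncoding genes DANT1 and DANT2 on the same chromosome had 7.05 and 3.83, and one inside LOC102724701 on chromosome 21 had 7.08 and 4.18. In the other direction MAZ, a zinc finger factor that binds GC-rich promoters, ranked 1581 in edit_myc_FLAG (fold 3.81) and 141 in endog_myc (fold 7.25). GIPC1, a PDZ-domain adaptor, had folds of 4.20 and 7.84, and ZNF57, a zinc finger gene, 3.98 and 6.21. The weak edit_myc_FLAG region at RAB11B formed the last such pair (3.74 and 6.51), while the stronger edit_myc_FLAG region there (8.81, rank 69) overlapped the same endog_myc region (rank 207), so the promoter as a whole does not have that order. The 4 pairs higher in endog_myc were all at gene starts, and of those higher in edit_myc_FLAG NMT1 was.

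Among regions of edit_myc_FLAG alone, the highest folds at a gene start were those of UBP1, a transcription factor related to grainyhead (10.3), AKAP8L, a nuclear anchoring-protein relative (10.3), LOC124905351 (10.02), ABHD17B, a depalmitoylase (9.85), ATF7, a basic leucine zipper factor (8.94), LSM1, an mRNA decapping factor (8.74), LCA5 (8.48) and FAM86B2 (8.16). An endog_myc region (5.38) lay at the other end of AKAP8L, nearest to AKAP8, so this gene counts among those with both lists at the level of genes. Of these 8 regions, those at UBP1 and ATF7 were also in myc_FLAG. Those at AKAP8L, LOC124905351, LSM1 and FAM86B2 were matched by a gene end, since these genes have no listed start. The LOC124905351 region, chr3:10155-10679, lay 745 bp from that end. The printed LCA5 window lay under a region on chr6:79537165-79537516 that ranked 79.5 in its list. Its summit was 19 bp past the start, outside the printed stretch. Among those of endog_myc alone the highest were RPRD2 (8.76), SPRYD3 (8.72), ZSWIM3 (8.14), the kinase gene GSK3B (7.74), PABPN1 (7.38), RAB5B, a GTPase of early endosomes (7.22), DCAF15, a substrate receptor of a CUL4 ubiquitin ligase (6.87), and ERCC2, a helicase of TFIIH (6.80). Those at RPRD2, DCAF15 and ERCC2 were also in myc_FLAG. Few unshared regions at gene starts were near misses, within 1000 bp of a region of the other list. They were 11 of 543 of edit_myc_FLAG alone (2.03%) and 10 of 114 of endog_myc alone (8.77%). Over all locations the near misses were 47 of 1242 (3.78%) and 42 of 441 (9.52%). Inside genes they were 13 of 343 (3.79%) and 12 of 61 (19.7%).

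At the level of genes, an edit_myc_FLAG region lay at a start of 863 of 19974 protein-coding genes, and an endog_myc region at 360. Both lists had a region at 230 genes (1.15% of all), edit_myc_FLAG alone at 633 (3.17%) and endog_myc alone at 130 (0.651%). Of these, 24, 89 and 17 genes have no listed start and were matched by either gene end. At 217 of the 230 genes the strongest regions of the lists overlapped, and at 13 they lay apart. With −log10 q of at least 5 both lists had a region at 95 genes. The gene lists that follow were drawn up with earlier results of these data known, so their counts are descriptions to be read beside those 3 shares.

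Several genes for RNA-binding proteins had regions of both lists. Of 52 genes for hnRNPs (proteins that package pre-mRNA) and other RNA-binding proteins, 7 had both (13.5%), 3 had edit_myc_FLAG alone and 1 had endog_myc alone. The 7 were HNRNPA0, HNRNPA1, HNRNPC, HNRNPR, HNRNPUL1, SYNCRIP and FXR2. HNRNPA0 had folds of 10.2 in edit_myc_FLAG and 5.99 in endog_myc, HNRNPC 7.20 and 8.49, and HNRNPR 6.70 and 6.21. SYNCRIP, also known as hnRNP Q, had 5.66 and 5.48, and FXR2, a paralog of the fragile X protein, 6.01 and 5.98. The HNRNPA1 promoter faces CBX5, and its edit_myc_FLAG summit was nearest to CBX5. The starts of HNRNPL and KHSRP carried an IgG region, so any region overlapping it was dropped. Of 74 splicing factor genes 2 had both lists, SNRPA (8.55 and 9.62), which encodes a protein of the U1 splicing particle, and SF1 (6.21 and 5.75), which binds the branch point, and 4 had edit_myc_FLAG alone.

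Chaperone genes had 3 of 36 in both lists (8.33%), 2 in edit_myc_FLAG alone and 2 in endog_myc alone. P4HB had folds of 8.66 and 10.2, and HSPA1B, a heat-inducible HSP70, 4.85 and 8.40. At DNAJB1, an HSP40 co-chaperone, the edit_myc_FLAG region (5.34) and the endog_myc region (6.30) lay at different starts of the gene and did not overlap, and the latter was nearest to TECR. HSPA5, the HSP70 of the endoplasmic reticulum (7.17), and HSPA8, the constitutive HSP70 (6.15), had edit_myc_FLAG alone, while PDIA4 (4.90) and TCP1 (4.61) had endog_myc alone. The TCP1 region was nearest to MRPL18.

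In classes known to respond to MYC, 0 or 1 gene per list had both. These counts are too small to tell apart from the 1.15% of all genes. Of 60 MYC target genes 1 had both (1.67%), UNG, with folds of 4.72 and 5.67. Both summits lay upstream of the printed window, that of edit_myc_FLAG at 109097878, and both regions reached into it. The other listed start of UNG was the nearest for both, 281 bp from the edit_myc_FLAG summit and 43 bp from the endog_myc summit. Of 82 ribosome biogenesis genes none had both and 5 had edit_myc_FLAG alone (6.10%, where edit_myc_FLAG alone has 3.17% of all genes): UTP18 (6.31), RRP1B (4.95), POLR1D (4.89), NOP56 (4.82) and LTV1 (4.71). RRP1B has no listed start, and its region was matched by a gene end. A count of 0 of 82 allows up to 3.66%. In the MAX network itself 2 of 13 genes, MXD1 (5.97) and MXD3 (4.50), which encode MAX partners that oppose MYC, had edit_myc_FLAG alone. Of 34 genes of nucleotide and polyamine synthesis 1 had both (2.94%), RRM2, the small subunit of ribonucleotide reductase (5.36 and 3.97), and MTHFD1 (7.20) and CTPS1 (5.91) had edit_myc_FLAG alone. Of 37 tRNA synthetase genes 1 had both (2.70%), SARS2, the mitochondrial seryl-tRNA synthetase (5.46 and 8.10).

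The other classes had between 0 and 7 genes with a region in either list. Translation factors had 0 of 47 in both lists and 3 in edit_myc_FLAG alone (6.38%: EIF4A1, ETF1 and EIF5), and cytosolic ribosomal proteins had 0 of 79 in both and 1 in edit_myc_FLAG alone (RPS14). Oxidative phosphorylation genes had 1 of 74 in both, NDUFV3 of complex I (6.45 in edit_myc_FLAG), 4 in edit_myc_FLAG alone (5.41%) and 2 in endog_myc alone (2.70%). Cell cycle genes had 0 of 53 in both, 2 in edit_myc_FLAG alone (3.77%, PCNA and LIN52) and 2 in endog_myc alone (3.77%, CDK2 and CHEK2). The LIN52 region was nearest to ALDH6A1, the CDK2 region to RAB5B and the CHEK2 region to HSCB. CDK2 has no listed start, and its region was matched by a gene end, 974 bp away. The translation factor gene EIF5A and the cell cycle gene ORC6 carried an IgG region, so any region overlapping it was dropped. Of 36 lysosomal genes 1 had edit_myc_FLAG alone, NPC1. None of 20 glycolysis genes and none of 40 control genes of liver, muscle, immune cells and neurons had a region in either list.

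The myc_FLAG list, which the sharing rule did not use, overlapped shared regions most. Made with the same anti-FLAG antibody as edit_myc_FLAG, it overlapped 276 of 433 shared edit_myc_FLAG regions (63.7%, 59.1 to 68.1). The list overlapped 143 of 1242 regions of edit_myc_FLAG alone (11.5%, 9.86 to 13.4) and 116 of 441 of endog_myc alone (26.3%, 22.4 to 30.6). At gene starts the shares were 61.0%, 10.9% and 18.4%, and in gene-poor DNA 78.3%, 27.5% and 32.8%. Between the regions of 1 list alone, the pooled intervals do not meet, but at gene starts, inside genes and in gene-poor DNA they overlap, and gene-poor regions are 44.2% of endog_myc alone and 9.66% of edit_myc_FLAG alone. With −log10 q of at least 5 in both compared lists the shares over all locations were 77.7%, 26.6% and 47.0%. At the level of genes 140 of 230 in both lists were in myc_FLAG (60.9%, 54.4 to 66.9), against 79 of 633 (12.5%) and 26 of 130 (20%). Shared windows held a CCAAT box in 115 of 127 cases where the region was also in myc_FLAG (90.6%) and in 63 of 74 where it was not (85.1%), with overlapping intervals.

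Many gene-poor regions, shared or not, lay in 1 stretch of chromosome 1. Of the 106 gene-poor shared edit_myc_FLAG regions, 51 (48.1%) had summits between 122 and 125 Mb, the stretch that holds the centromere model of this chromosome in hg38. Unshared gene-poor regions lay there about as often, 57 of 120 of edit_myc_FLAG alone (47.5%) and 80 of 195 of endog_myc alone (41.0%). In all 108 edit_myc_FLAG and 131 endog_myc regions outside IgG regions lay there. The myc_FLAG list had 146 regions in the same stretch, mouse IgG 26 and rabbit IgG 14. On chromosome 4, 11 shared edit_myc_FLAG regions, none of them gene-poor, lay between 49 and 50 Mb, where mouse and rabbit IgG had 24 regions each. Within 10 kb of an IgG region lay 40 of the 106 gene-poor shared edit_myc_FLAG regions (37.7%), 22 of the 81 intergenic ones (27.2%) and none of the 187 at gene starts. Whether reads map uniquely in these stretches was not tested.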

How the data were processed

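The 5 deposited lists hold the authors' peak calls for CUT&RUN in HEK293T cells, 1 list per group. Per the submitters' processing notes the tools were MACS3 3.0.0b1, HOMER 4.10, Bowtie2 2.4.5 and SAMtools 1.15, on the hg38 build. Which step each did, its options, the control library and how replicates were merged: not given in the sources used here. Of the deposited columns, those used were start, end, summit offset, the fold enrichment (a linear ratio made by the authors) and the authors' −log10 q, whose lowest value in the compared lists was 1.30. Depth is unknown.

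From these files, overlaps, summit distances, ranks and shares were computed with Python 3.11.15, numpy 2.4.6, pandas 2.3.3 and scipy 1.17.1, and the overlap code was tested on simulated data. Gene starts and promoter windows came from RefSeq tables for GRCh38.p14. Of 19974 genes, 15813 had a listed start, and for 4161 either gene end was used. In each of 10 motifs, both strands were searched. Named genes followed rules on fold rank, rank difference, summit distance and membership of 15 gene lists. The members, gene lists and motifs were chosen with earlier results of these data known. No p-value was computed, since each list merges its replicates.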

Additional observations from a re-analysis of the deposited data

Results flagged for a closer look

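Chromosome Y and the unplaced contigs were outside the comparison, and regions of both lists lay there: of 145 edit_myc_FLAG regions outside IgG regions, 69 overlapped an endog_myc region (47.6%). No chance level was computed for these contigs. The same stretches held 156 IgG regions. Whether reads map uniquely there was not tested.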

How the results depend on the processing

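The shared edit_myc_FLAG regions numbered 433, against 238 with −log10 q of at least 5 and 699 with no IgG filter, and the shared endog_myc regions 432, against 238 and 684. The median summit distance of 45 bp was 28 bp with −log10 q of at least 5 and 30 bp with no IgG filter. The rank correlation of fold over all pairs, 0.66, was 0.77 with −log10 q of at least 5, 0.50 with lists of equal length, 0.76 with no IgG filter and 0.53 when ranked by −log10 q. Its excess away from gene starts, 0.50, was 0.20 with lists of equal length and 0.19 when ranked by −log10 q. Genes in both lists numbered 230, and 95 with −log10 q of at least 5. A stricter threshold or a cut to equal length keeps fewer regions by construction; the cause of the other changes was not tested. Of 202 recomputed values under 11 settings, 156 stayed within their margin (1.5 times for counts and differences, the 95% interval for the rest). No correlation or difference changed sign, and the other values cannot be negative. The excess of CCAAT boxes in shared over edit_myc_FLAG-alone windows, 24.9 percentage points, ranged from 19.1 to 25.4. The setting without chromosome 1 from 122 to 125 Mb was chosen after seeing the data. Leaving out single libraries could not be run, because each list merges its 3 libraries. No paired analysis was possible because the lists carry no replicate columns. Unknown depth limits every count of regions in 1 list alone.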

Other observations

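Sharing was uneven over the chromosomes. On chromosome 19, which is rich in genes, 57 of 143 edit_myc_FLAG regions (39.9%) and 56 of 81 endog_myc regions (69.1%) were shared, and 46 of its 97 edit_myc_FLAG regions at gene starts were among them. On chromosome 3, 4 of 44 edit_myc_FLAG regions (9.09%) and 4 of 12 endog_myc regions were shared. These chromosomes were named after their values were seen, and the shares were not tested.

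Other promoter motifs were counted in the same windows. The GC box was in 82.6% of shared windows, 81.4% under edit_myc_FLAG alone and 86.8% under endog_myc alone, against 56.3% of all windows. The NRF1 core, GCATGCG, was in 8.46%, 10.6% and 6.61%, against 4.63%. The ETS core, CCGGAAG, was in 12.4%, 16.7% and 12.4%, against 12.8%. Of 2 variant E-boxes, CACGCG was in 18.4% of shared windows (13.7 to 24.3) and 21.6% under edit_myc_FLAG alone (18.3 to 25.3). It was in 19.8% under endog_myc alone (13.7 to 27.8), against 14.2% of all windows. The variant CATGTG was in 4.48%, 5.30% and 3.31%, against 8.93%. The TATA box, TATAAA, was in 14 of 201 shared windows (6.97%, 4.19 to 11.4), against 9.46% of all windows. It was in 10 of 528 under edit_myc_FLAG alone (1.89%, 1.03 to 3.45) and 3 of 121 under endog_myc alone (2.48%, 0.847 to 7.04).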
